A study of Rattus norvegicus with 18 samples.

Results

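The striata of the dopamine-denervated side were compared between rats treated with L-DOPA and untreated (UNT) rats, 3 against 3, so that 6 of the 18 striata of the series entered the comparison. The rats were juvenile male Wistar rats, and all of them, UNT included, had received 6-OHDA, a toxin of catecholaminergic neurons, into the left medial forebrain bundle on postnatal day 21. From postnatal day 35 to 49, that is for 2 weeks, rats of the L-DOPA group were given L-DOPA with benserazide, which limits its conversion outside the brain, while UNT rats were labelled as treated with saline. A final administration followed on postnatal day 53, when the striata were collected. The L-DOPA + R group, which had Riluzole in addition, and the control striata of the opposite hemisphere are used for side by side values. The tissue was whole striatum, so that a change of methylation within cells and a change in the share of cell types cannot be told apart.

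In the striatum, dopamine from the midbrain acts on the projection neurons through D1 and D2 class receptors, and the loss of this input is the core lesion of Parkinson's disease. L-DOPA is converted to dopamine and, when given repeatedly to animals with denervated striata, leads to abnormal involuntary movements. Methylation of cytosine at CpG dinucleotides is a stable mark of the DNA: CpG-dense promoters are mostly free of it, while sparse CpGs of gene bodies and intergenic DNA carry it in most cells. The comparison asks at which CpGs repeated L-DOPA is accompanied by another methylation level when dopamine input is missing.

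Reduced representation bisulfite sequencing (RRBS) reads fragments of CpG-rich DNA, where converted unmethylated cytosines appear as T. Between 18714958 and 26345473 calls were listed per L-DOPA striatum and between 30288745 and 49113957 per UNT striatum. The median number of reads at a tested CpG was 18 to 27 in L-DOPA and 30 to 50 in UNT. A fully unmethylated DNA added to each library was read as methylated at 0.301 to 0.470% of calls in L-DOPA and at 0.476 to 0.562% in UNT. Along the reads, calls at 50 bases past a called cytosine of the same strand were 0.489 to 0.503 times those at 49 bases in UNT and 1.00 to 1.01 times in L-DOPA, where the drop came at the next base with a ratio of 0.475 to 0.477. Cytosines 46 to 50 bases past a called cytosine of the same strand were therefore left out.

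With at least 10 reads per cytosine, 396612 CpGs were present in all 6 striata. At a q under 0.01, 146 of them were differentially methylated sites (DMS), which was 0.0368% of the CpGs tested. Methylation was lower in L-DOPA at 76 DMS (0.0192%) and higher at 70 (0.0176%). The lower DMS made up 52.1% of all (Wilson 95% interval 44.0 to 60%, counting error alone). The median difference was -36.5 points at the lower and 37.4 points at the higher DMS, as L-DOPA minus UNT from the summed reads. Over all CpGs tested, the median size of the difference was 2.49 points. An unadjusted p under 0.05 was reached at 26866 CpGs (6.77%), of which 15280 were lower and 11586 higher in L-DOPA. The chi-square test with overdispersion correction gave these calls. Without UNT replicate 3, the count was 258, with 131 lower and 127 higher DMS. With an F test, which allows for the uncertainty of 3 striata per group, 0 CpGs passed, and 4832 had an unadjusted p under 0.05. The F test passed no CpG in simulated data with known changes either, so this 0 says nothing about how stable the calls are. In the simulated data where striata of a group varied beyond counting error, the chi-square test also called unchanged CpGs, at a share similar to that of the DMS here. How many of the 146 are such calls was not tested. With limma on log2 ratios of methylated to unmethylated reads, 0 CpGs passed as well, and 33059 had an unadjusted p under 0.05.

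The number of DMS and the share of lower ones moved with the cytosines that were left out. Without any exclusion by distance, the count was 1035, with 810 lower DMS and 225 higher ones. Leaving out those at 50 bases alone gave 198 and 185. When those at 40 to 55 bases were left out, the counts were 55 and 42.

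**Figure D1:**
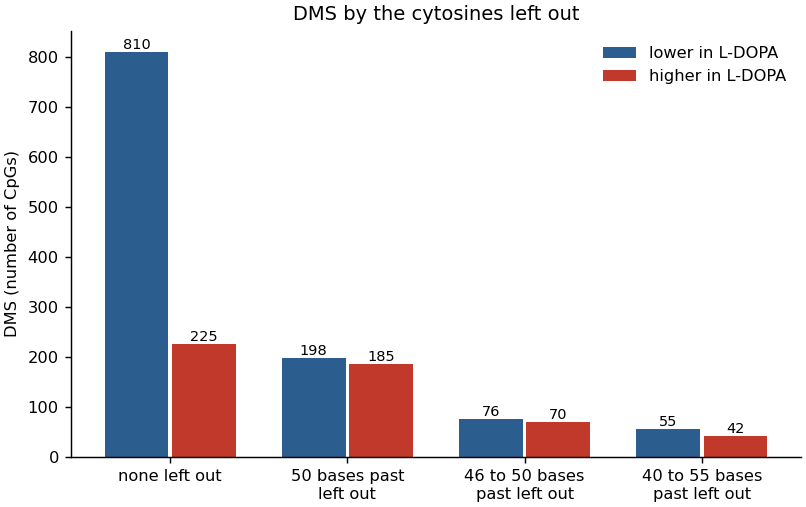
Number of DMS lower (blue bars) and higher (red bars) in L-DOPA lesioned striata against UNT, on the vertical axis, by the distance past a called cytosine of the same strand at which cytosines were left out, on the horizontal axis. Without exclusion 810 DMS were lower and 225 higher, and with 46 to 50 bases left out 76 were lower and 70 higher.

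The global difference was negative over the CpGs shared by the striata and positive over all calls. Mean methylation over the tested CpGs was 53.8, 52.8 and 53.4% in the 3 L-DOPA striata and 53.8, 53.6 and 54.1% in the 3 UNT striata. The means of 53.3% ± 0.476 (SD, n = 3) and 53.9% ± 0.256 (SD, n = 3) differed by -0.516 points (exact two-sided permutation test, p = 0.2, and 0.3 after adjustment over 6 sets of CpGs), where 3 against 3 cannot give a p below 0.1. CpGs with no other covered CpG within 100 bases had means of 71.3% ± 0.687 in L-DOPA and 72.1% ± 0.513 in UNT. CpGs with 5 or more covered neighbours had means of 16.8% ± 0.173 and 16.9% ± 0.0612. These sets differed by -0.844 points (exact permutation p = 0.2) and -0.119 points (exact permutation p = 0.3). The difference over all tested CpGs was -0.00643 points when CpGs were weighted by reads and -0.265 points without L-DOPA replicate 2. Over all calls of a library, with no minimum of reads and no CpG left out, each CpG counts by its reads. The level was then higher in L-DOPA, with 49.0, 47.5 and 48.9% against 47.0, 45.9 and 48.0% in UNT. The groups overlapped there, the libraries did not cover the same CpGs, and this difference was not tested. Weighting, read minimum and CpGs all differed from the means above, and the part of each in the change of sign was not tested.

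The highest ranked DMS among those with higher methylation in L-DOPA lay at position 8893036 of chromosome 11 of rn6, the build of all positions given here. Its level was 96, 98 and 96% in the L-DOPA striata, from 75, 51 and 50 reads, and 49.7, 49.4 and 46.7% in the UNT striata, from 292, 166 and 167 reads. All L-DOPA striata were nearly fully methylated and all UNT striata near the middle of the scale, a difference of 47.8 points (q = 5.62e-32). The reads of L-DOPA summed to 0.282 times those of UNT at this CpG, against a median ratio of 0.607 over all tested CpGs. The L-DOPA + R striata had 100, 98.4 and 94.5% there.

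The widest difference of all DMS was found at position 34747607 of chromosome 20, listed as intergenic, where the L-DOPA striata had 100, 100 and 97.1% and the UNT striata 6.25, 0 and 0% (96.3 points, q = 1.06e-26). It rested on 10 to 37 reads per striatum. A similar reversal from almost no to almost full methylation was present at position 15541541 of chromosome 12, where 100, 100 and 94.7% stood against 0, 0 and 8.33% (95.6 points, q = 3.63e-19). At the intergenic position 117914810 of chromosome 4, the L-DOPA striata had 90, 76.2 and 93.3%, while no methylated read was seen in UNT (85.7 points, q = 2.51e-18). At these 3 CpGs, the groups were at opposite ends of the scale, and the L-DOPA + R striata with at least 10 reads lay between 70 and 100%.

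The remaining 6 of the 10 highest ranked higher DMS include 5 in listed genes. In an intron of D2hgdh, which encodes a mitochondrial dehydrogenase of D-2-hydroxyglutarate (position 100960006 of chromosome 9), the level was 48.4, 48.7 and 46.5% in L-DOPA, whereas none of the 79, 44 and 70 UNT reads was methylated (47.8 points, q = 7.58e-25). In the L-DOPA + R striata it was 0, 0 and 94.1%. In an intron of Olfml2b, an olfactomedin-like extracellular protein (position 89020728 of chromosome 13), L-DOPA striata had 60.7, 45.5 and 68.2% and UNT striata 0% each (60.7 points, q = 1.41e-21). L-DOPA striata were intermediate at both CpGs and UNT striata free of methylated reads.

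In an exon of Actn2, coding for an actin crosslinking alpha-actinin (position 66325363 of chromosome 17), the level was 87.8, 96.3 and 80% in L-DOPA and 31.6, 32.8 and 27.2% in UNT (59.2 points, q = 8.27e-18). At an intronic CpG of Rgl1, an exchange factor of the small GTPase Ral (position 70004027 of chromosome 13), the level was 87.5, 75 and 69.2% against 4.48, 7.14 and 0% (74.5 points, q = 9.45e-17). Rbm20, a splicing regulator known from heart muscle (position 274397891 of chromosome 1), had an intronic level of 91.7, 100 and 95.7% against 55, 55.3 and 56.1% (40.02 points, q = 6.95e-15). The sixth site, intergenic at position 77931839 of chromosome 10, had 45.5, 65 and 63.6% against 0% in each UNT striatum (56.0 points, q = 5.81e-19), and 0% in each L-DOPA + R striatum. L-DOPA and UNT did not overlap in any of the 6 cases, while the L-DOPA + R striata differed among themselves at D2hgdh, as given above, and at Olfml2b, with 44.4, 13.3 and 0%.

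Of the DMS with lower methylation, the first in rank was listed in the promoter of Rn5-8s, a 5.8S ribosomal RNA gene (position 11906165 of chromosome 1). Its level was 1.82, 4.35 and 8.11% in L-DOPA and 69.8, 64.7 and 66.7% in UNT (-63.9 points, q = 3.02e-28), so that the L-DOPA striata were nearly unmethylated. A second DMS 3 bases away, at 11906162, had 19.7, 22.2 and 28.9% against 64.7, 62.9 and 60.3% (-39.97 points, q = 1.06e-09). Ribosomal RNA genes are present in many copies, and reads of different copies cannot be told apart at such a position.

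The other 9 of the 10 highest ranked lower DMS were listed as intergenic, except for one in the promoter of Cb707485, a long non-coding RNA (position 3534263 of chromosome 20). There the level was 0% in each L-DOPA striatum, from 49, 23 and 37 reads, and 38.6, 42.3 and 39.3% in UNT (-39.5 points, q = 2.62e-13). No methylated read was seen in L-DOPA either at position 152547567 of chromosome 5, where UNT striata had 48, 56 and 56.5% (q = 1.71e-15), or at position 12004838 of chromosome 14, where they had 61.8, 90 and 56.5% (q = 7.23e-10). The L-DOPA striata thus had no methylated read at 3 of these 9 CpGs.

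At the other 6 CpGs, UNT striata were almost fully methylated, with 91.9% as the lowest value. Position 53909993 of chromosome 3 had 51.2, 57.7 and 63.3% in L-DOPA and 100% in each UNT striatum (-43.4 points, q = 1.01e-14). Position 237622891 of chromosome 2 had 49.2, 42.1 and 54.8% against 93.2, 100 and 96.9% (-47.6 points, q = 5.68e-15). The largest drop of all DMS, -73.9 points (q = 4.36e-11), was at position 49786133 of chromosome 17, with 31.2, 15.4 and 5.88% in L-DOPA and 96.6, 92.3 and 94.1% in UNT. At position 75159371 of the same chromosome, the L-DOPA level was 50, 56.2 and 33.3%, against 94.7, 92.1 and 91.9% (-48.0 points, q = 2.03e-14). The last 2, at 15698819 of chromosome 4 and 56142417 of chromosome 11, fell by 36.5 and 35.7 points, from means of 98.7% ± 2.31 and 96.4% ± 2.12 (SD, n = 3) in UNT. The 20 CpGs named so far were chosen as the 10 with the smallest p in each direction, so their order is a description, and each of them kept its call when any 1 striatum was left out.

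**Figure D2:**
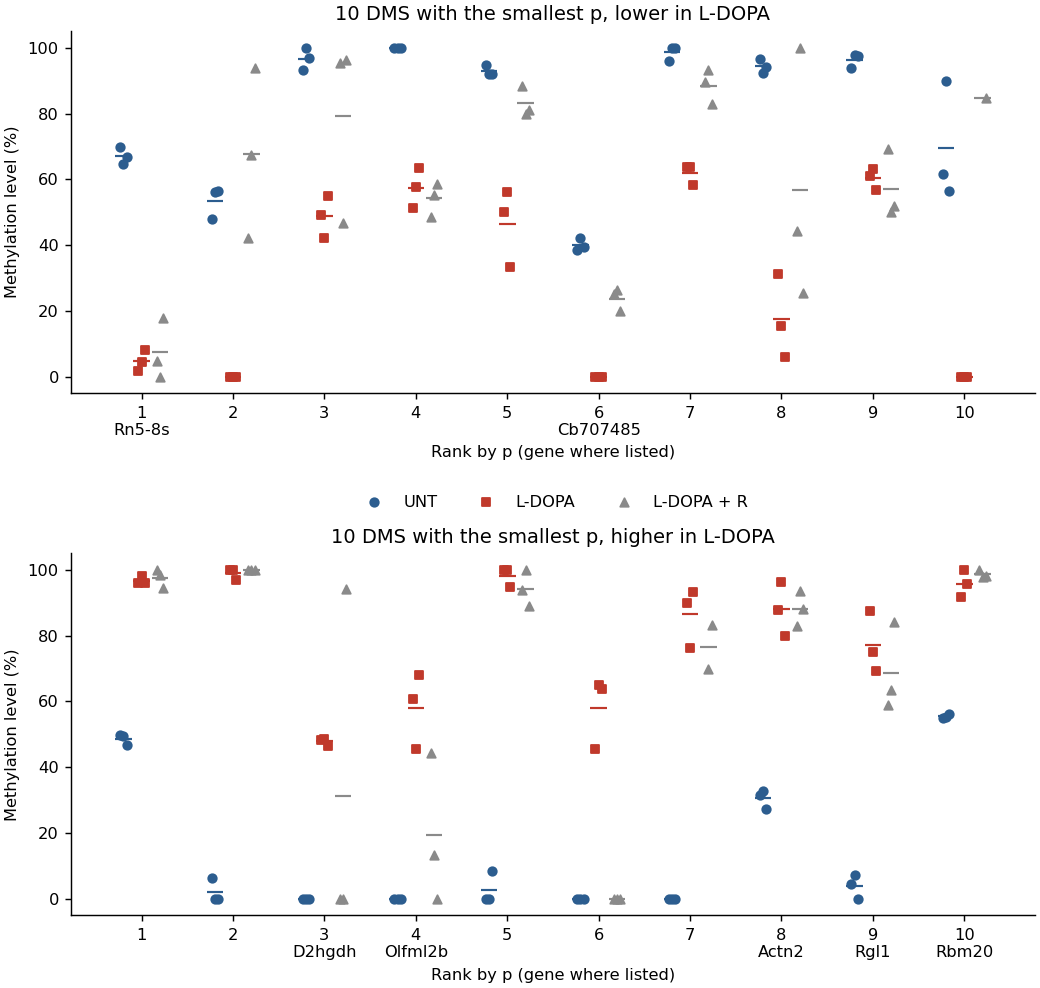
Methylation level in percent (vertical axis) of the 10 lower (top) and the 10 higher (bottom) DMS with the smallest p, by rank on the horizontal axis with the listed gene. Each point is 1 lesioned striatum of UNT (circles), L-DOPA (squares) or L-DOPA + R (triangles), and the short lines are the means of the group; L-DOPA and UNT points do not overlap at any of the 20 CpGs, by the way they were chosen, while the L-DOPA + R points range from 0 to 94.1% at D2hgdh.

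By level, the DMS moved mostly to or from the middle of the scale. Of 39 DMS with 10% or less in UNT, 32 were intermediate and 2 were at 90% or more in L-DOPA. Of 31 DMS with 90% or more in UNT, 29 were intermediate and 0 were at 10% or less in L-DOPA. Of the 76 intermediate ones, 22 were low, 38 intermediate and 16 high in L-DOPA. UNT striata had no methylated read at 24 DMS (16.4%, against 13.6% of all tested CpGs). The L-DOPA level there had a median of 36.2% and a range of 9.41 to 85.7%. L-DOPA striata had no methylated read at 18 DMS (12.3%, against 16.2% of all tested CpGs). The UNT level at these had a median of 43.0% and a range of 10.8 to 67.8%. Among all tested CpGs, 30.7% were low, 40.4% intermediate and 28.9% high in UNT, against 26.7, 52.1 and 21.2% of the DMS.

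**Figure D3:**
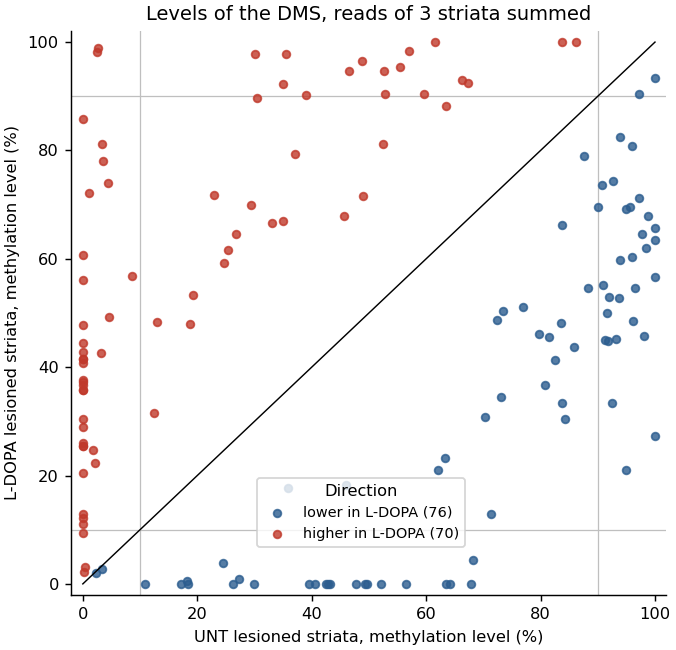
Methylation level of each of the 146 DMS in UNT (horizontal axis) and L-DOPA (vertical axis) lesioned striata in percent, from the summed reads of 3 striata, with lower DMS in blue and higher ones in red. The diagonal marks equal levels and the grey lines 10 and 90%; 24 points lie at 0% in UNT and 18 at 0% in L-DOPA.

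Within the groups, the striata lay close together at the DMS. The median SD was 4.95 points in L-DOPA and 3.17 points in UNT. At the 93 DMS with a mean of 20 to 80% over the 6 striata it was 5.55 and 3.87 points, against 9.30 and 8.13 points at all tested CpGs with such a mean. As a small spread favours a call, this is a description of the chosen sites. The groups did not overlap at 140 DMS, against 7.83% of all tested CpGs. A difference of at least 25 points was present at 112 DMS, and 4 differed by less than 5 points. A set of 17 DMS (11.6%) had each of the 6 striata within 10 points of 0, 50 or 100%, without being alike in all 6. The same pattern was present at 0.0857% of the tested CpGs. Of the 100 values on the control side at these 17 DMS, 84 were at the same of the 3 levels as the lesioned striatum with the same number. In L-DOPA + R lesioned striata, 35 of 47 values were at 1 of the 3 levels, and 8 of the 17 DMS showed more than 1 level among these rats. What sets these steps was not tested.

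The DMS were called where the L-DOPA and UNT striata varied little within their group, so that a wider spread in L-DOPA + R, which did not enter the call, is no result by itself. At 128 DMS with a value in all 3 L-DOPA + R lesioned striata, the median SD of this group was 7.70 points, and the highest and lowest striatum were at least 40 points apart at 22 (17.2%). Over all 327812 tested CpGs with such values, the median SD was 4.35 points in L-DOPA + R, 4.06 in L-DOPA and 3.43 in UNT, and a gap of 40 points was present at 2.08, 1.31 and 0.740%. At CpGs whose mean over the L-DOPA and UNT striata was 20 to 80%, the median SD in L-DOPA + R was 10.1 points at 79 DMS and 9.75 points at all 78481 CpGs, while a gap of at least 40 points was present at 17 of these DMS (21.5%) and at 6.97% of these CpGs. A gap of at least 40 points was present at 7 DMS in L-DOPA and at 2 in UNT lesioned striata, and at 6 and 7 in the control striata of these groups. At 55 of the 128, the 3 L-DOPA + R striata were all within 10 points of the L-DOPA range, at 34 all within 10 points of the UNT range, and at 29 at least 1 striatum was that close to the L-DOPA range only and at least 1 to the UNT range only. A DMS with a small difference can be in more than 1 of these classes, and 26 were in none.

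Read depth stood apart at some DMS. The ratio of reads between L-DOPA and UNT was outside percentiles 1 to 99 of all tested CpGs, that is under 0.296 or above 1.203, at 25 DMS (17.1%), of which 10 were below and 15 above. By construction, 2.00% of the tested CpGs were outside. The part of depth in the difference was not tested. Without such CpGs 112 DMS were called, 62 lower and 50 higher.

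Most DMS stood alone. As 128 of them had no other DMS within 100 bases, 18 fell into 8 runs, and all 8 had 1 direction. A DMS had 1 to 4 other covered CpGs within 100 bases in 80.8% of cases, against 64.6% of all tested CpGs, and 5 or more in 7.53%, against 16.1%. Another tested CpG within 40 bases, which a read can share with the DMS, was present at 122 DMS and gave 245 pairs, where 2 DMS close to each other count once from each. The median difference at these neighbours was 3.26 points in the direction of the DMS, and 176 pairs (71.8%) had the same sign. Of the 220 neighbouring CpGs, 18 were DMS themselves, where 0.0368% of all tested CpGs were DMS. An unadjusted p under 0.05 was reached at 83 of the 220 (37.7%), against 6.77% of all tested CpGs. As DMS are chosen for a large difference and their neighbours are not, the sizes of the 2 sets were not compared by a test.

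**Figure D4:**
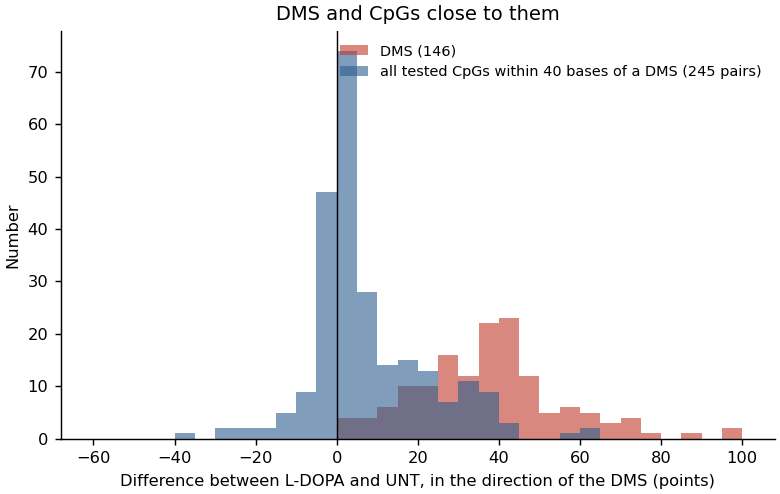
Number of DMS (red) and of pairs of a DMS and any other tested CpG within 40 bases (blue, other DMS included), on the vertical axis, by the difference between L-DOPA and UNT lesioned striata in the direction of the DMS in points, on the horizontal axis. The 146 DMS, which were chosen for their difference, have a median size of 36.9 points, and the 245 pairs have a median of 3.26 points.

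There were 2 runs of at least 3 DMS. The first spanned 27 bases of intergenic DNA at positions 11916810, 11916824 and 11916837 of chromosome 1. The level at the last of these was 40.6, 30 and 47.6% in L-DOPA and 85.4, 73.3 and 82.6% in UNT (-41.2 points, q = 1.57e-07), and the other 2 fell by 33.7 and 38.7 points. In the order of position, their calls were kept in 4, 1 and 5 of the 6 fits without a striatum. On the control side all 3 had the same direction, with q values of 0.0875, 0.227 and 0.0563 that missed the threshold. Together with 4 DMS between 11906162 and 11911522, which include the promoter of Rn5-8s, they made up the window of 1 Mb with the most DMS, 7, and all 7 were lower in L-DOPA. The reads of L-DOPA at these CpGs were 0.530 to 1.49 times those of UNT.

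The second run spanned 6 bases at positions 181770694, 181770697 and 181770700 of chromosome 1, listed as intergenic. At the last of these, the level was 34.7, 9.09 and 27.8% in L-DOPA, while no UNT read was methylated (28.9 points, q = 7.23e-10). L-DOPA replicate 2 had 0% at the first 2, as had all UNT striata. The groups therefore overlapped there, and these CpGs were called at differences of 20.4 and 12.1 points on the reads of L-DOPA replicates 1 and 3. The call at the second of the 3 was kept in 1 of the 6 fits without a striatum, and those at the others in all 6.

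A run of 2 DMS, 30 bases apart, lay in the promoter of Ppp1r14b, which encodes an inhibitor of protein phosphatase 1. At position 222229996 of chromosome 1, the level was 45.7, 59.6 and 39.4% in L-DOPA and 5.66, 6.25 and 0% in UNT (44.6 points, q = 5.12e-09). At 222230026 it was 45.7, 55.3 and 42.4% against 9.43, 21.9 and 8.7% (35.4 points, q = 0.000206). The L-DOPA striata were higher at both, and the L-DOPA + R striata lay between 36.8 and 51.3%. This promoter and the genes of the following paragraphs, other than those ranked above, were picked after their values were seen.

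Of the 146 DMS, 104 had an annotation in the site lists of the study, which were made on these samples. Of these, 71 were intergenic, 17 in introns, 8 in exons and 8 in promoters. The 33 DMS in genes fell into 31 genes, with 11 lower and 22 higher DMS. In introns 13 of 17 were higher, in promoters 5 of 8, in exons 4 of 8, and in intergenic DNA 31 of 71. The direction by region was not tested.

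The level in an exon of Rere, a nuclear receptor corepressor (position 167659804 of chromosome 5), was 95, 100 and 100% in L-DOPA and 25, 29.7 and 37.5% in UNT (67.6 points, q = 2.96e-11). The L-DOPA striata had 20, 15 and 10 reads there and the UNT striata 128, 91 and 96, a ratio of 0.143. Nfkb1, which encodes a subunit of the inflammatory transcription factor NF-kappa-B (position 240878522 of chromosome 2), had an intronic CpG with 35.7, 33.3 and 57.9% against 0% in each UNT striatum (44.4 points, q = 7.39e-07). In an exon of Notch4, a receptor of cell fate decisions, which was listed together with complement gene C4a (position 4350026 of chromosome 20), it was 0% in each L-DOPA striatum and 61, 50 and 26.7% in UNT (-49.6 points, q = 0.00131). In an exon of the zinc finger gene Zfp61 (position 81123836 of chromosome 1), it was 30, 17.6 and 53.3% against 88.6, 96.2 and 93.8% (-59.1 points, q = 3.06e-05).

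In an intron of Ptpn13, a protein tyrosine phosphatase (position 7699845 of chromosome 14), no L-DOPA read was methylated, while the UNT level was 50, 84 and 81.8% (-67.8 points, q = 1.34e-06). The intronic CpG of Ptpn14, of the same enzyme class (position 108836276 of chromosome 13), had 70, 70 and 68.8% against 98.1, 93.8 and 94.3% (-26.0 points, q = 0.00518). That of the cyclin-dependent kinase gene Cdk14 (position 26171518 of chromosome 4) had 0, 13.6 and 30.8% against 69.4, 70.5 and 75.8% (-58.4 points, q = 0.000767). These 3 fell. P2rx7, an ATP-gated channel of microglia (position 39374137 of chromosome 12), rose in an intron from 27.1, 53.2 and 31% to 100, 88.9 and 92.9% (57.1 points, q = 0.00245). The call at P2rx7 was kept in 1 of the 6 fits without a striatum.

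Further intronic DMS lay in Stxbp3, a syntaxin-binding protein (position 211633534 of chromosome 2, 41.5 points, q = 9.93e-10), Napg, an attachment protein of membrane fusion (position 58328173 of chromosome 18, 30.9 points, q = 0.00437), and Clint1, a clathrin interactor (position 30979401 of chromosome 10, -29.9 points, q = 8.16e-05). At Stxbp3 the level was 25, 50 and 53.8% in L-DOPA and 0% in each UNT striatum. At Clint1 this was reversed, with 0% in each L-DOPA striatum and 31.1, 32.1 and 25% in UNT. An exonic CpG of Tbc1d22b, which encodes an activator of Rab GTPases (position 8244281 of chromosome 20), had means of 94.5% ± 5.28 in L-DOPA and 49.1% ± 12.3 in UNT (n = 3, 42.1 points, q = 0.0037).

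The promoter of Edem2, which helps to degrade misfolded proteins (position 151259161 of chromosome 3), had 64.7, 90 and 66.7% in L-DOPA and 26.1, 26.7 and 10% in UNT (48.9 points, q = 0.00944). The call at Edem2 was lost in each of the 6 fits without a striatum. An exonic CpG of Atf6, a membrane-bound transcription factor of the unfolded protein response (position 89211470 of chromosome 13), had 63.2, 62.5 and 77.8% against 100, 97 and 100% (-30.8 points, q = 0.000454). On the control side, the difference at Atf6 was -8.23 points (q = 0.914).

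The other genes were represented by 1 DMS each. Promoters of Mab21l3 and Fancd2os rose by 35.7 points (q = 6.17e-05) and 51.1 points (q = 0.000903). At Mab21l3 (position 204255609 of chromosome 2), L-DOPA striata had 40, 46.7 and 16.7% and UNT striata 0% each. Introns of Farp2, an exchange factor of Rac, and of Azin2, an activator of polyamine synthesis, also went from 0% in each UNT striatum to 43.2% ± 8.87 and 43.9% ± 8.05 (SD, n = 3). Intronic DMS of Mad1l1 (78.0 points), Adamts14 (41.5 points) and Myo1e (29.3 points) and an exonic one of Trmt1l (48.1 points) were higher as well. Of the 33 DMS in genes, 16 kept their call in each of the 6 fits without a striatum. The call at Fancd2os was kept in 1 of these fits, and those at Notch4, Cdk14, Ptpn14, Napg, Tbc1d22b, Mad1l1 and Myo1e were kept in 2.

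Genes of the dopamine and glutamate systems and their neighbours were examined through 13 lists with 230 genes, among them dopamine signalling, glutamate receptors, calcium signalling, synaptic adhesion and markers of striatal cell types. The listed sites of the study, picked on these samples, gave 35 CpGs in 29 of these genes that were tested here, where Commd1 and Zrsr1 share their CpGs. None of them was a DMS in the chi-square test, and 14 had an unadjusted p under 0.05, 7 lower and 7 higher, where 6.77% of all tested CpGs had one. The F test and limma passed no CpG anywhere, so they say nothing about these sites. Before the exclusion by distance, 6 of 47 listed sites were called, where 0.237% of all CpGs were. These were 1 of 5 sites of the dopamine list, 2 of 9 of the glutamate list, 2 of 12 of the synaptic adhesion list and 1 of 2 of the endothelial list, while the other lists had none, among them calcium signalling with 9 sites and imprinted genes with 4. As the study chose its sites by such calls, these counts are no independent evidence. The groups did not overlap at 12 of the 35, against 7.83% of all tested CpGs. Astrocyte and oligodendrocyte markers had no site among them.

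The listed site with the smallest p was in an intron of Tmem119, a marker of microglia (position 48601077 of chromosome 12), where the mean ± SD over 3 rats was 78.7% ± 14.7 in L-DOPA against 39.96% ± 7.67 in UNT. The difference of 39.2 points had a q of 0.0608. In an intron of Dlgap1, a scaffold of the postsynaptic density, the means were 81.1% ± 7.84 and 100% ± 0 (q = 0.0959). Grm4, a metabotropic glutamate receptor, had 2 intronic CpGs with opposite signs. At position 6932893 of chromosome 20 the means were 77.7% ± 3.48 and 66.6% ± 3.06 (q = 0.265), and at position 7056781 they were 80.7% ± 9.49 and 89.99% ± 1.68 (q = 0.78). At Itpr1, the calcium channel of intracellular stores, the means were 15.2% ± 8.67 and 45.3% ± 12.8 (q = 0.29). At Reln, which encodes the extracellular protein reelin, an intronic CpG had 63.0% ± 22.6 and 95.1% ± 4.25 (q = 0.521). The sites of the dopamine list that could be tested, in Pde10a and Adcy5, had unadjusted p values above 0.05, with 50% ± 25 in L-DOPA and 57.9% ± 5.99 in UNT at Adcy5.

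The control striata of the same rats were read in libraries of their own, and the comparison of L-DOPA with UNT was repeated there. Of 445856 CpGs tested, 177 were DMS (0.0397%), 100 lower and 77 higher, and 326 were called without UNT replicate 3. Of the 146 DMS of the lesioned side, 137 were tested on the control side, and 126 (92.0%) had the same direction there, 64 lower and 62 higher. This count was 222 of 235 when UNT replicate 3 of the lesioned side was left out. Of all CpGs tested on both sides with a difference other than 0, 52.3% had the same direction. Of the 137, 107 had the same direction with an unadjusted p under 0.05 on the control side. Of all CpGs of the control side, 6.71% had such a p in either direction. The groups were apart without overlap, in the same direction, at 98, against 7.62% of all in either direction. A q under 0.01 on both sides was found at 65 DMS, which was 47.4% of the 137 above and 44.2% of the 147 DMS of the control side that were tested on the lesioned side. Both striata of a rat share its DNA and treatment, so that the control side is no independent set of rats. The control libraries also differed by group, with 18471279 to 30764504 calls in L-DOPA and 33567099 to 44030774 in UNT. The added unmethylated DNA was read as methylated at 0.360 to 0.428% in L-DOPA and 0.680 to 0.929% in UNT. Both lay lower in L-DOPA, as on the lesioned side, so that treatment and library differences cannot be told apart on either side.

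The size of the differences varied in how far it matched between sides. The median difference at lower DMS was -35.8 points on the lesioned and -29.8 points on the control side, and that at higher DMS was 37.2 and 33.0 points. As these DMS were chosen for their difference on the lesioned side, the smaller medians on the control side are no result about denervation. The sides differed by a median of 7.14 points, and by less than 10 points at 87 of the 137 DMS. Among the wide gaps, named after their values were seen, position 37528280 of chromosome 20 had -41.7 points on the lesioned and 14.7 points on the control side, and position 51151260 of chromosome 12 had -39.1 and -1.90 points. At D2hgdh, the control striata had 48.3, 48.6 and 52.3% in L-DOPA and 0% in each UNT rat, which matched the lesioned striata within 6 points. At Rn5-8s (position 11906165), they had 0, 5 and 6.25% against 74.8, 65.6 and 68.4%. At Ptpn13, they had 0% in each L-DOPA rat against 50, 80 and 77.8%. Lesioned and control striata with the same replicate number differed by a median of 5.84 points at the DMS in L-DOPA and 3.94 points in UNT, and those with different numbers by 6.25 and 4.90 points. The labels do not say whether the same number on both sides marks the same rat.

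**Figure D5:**
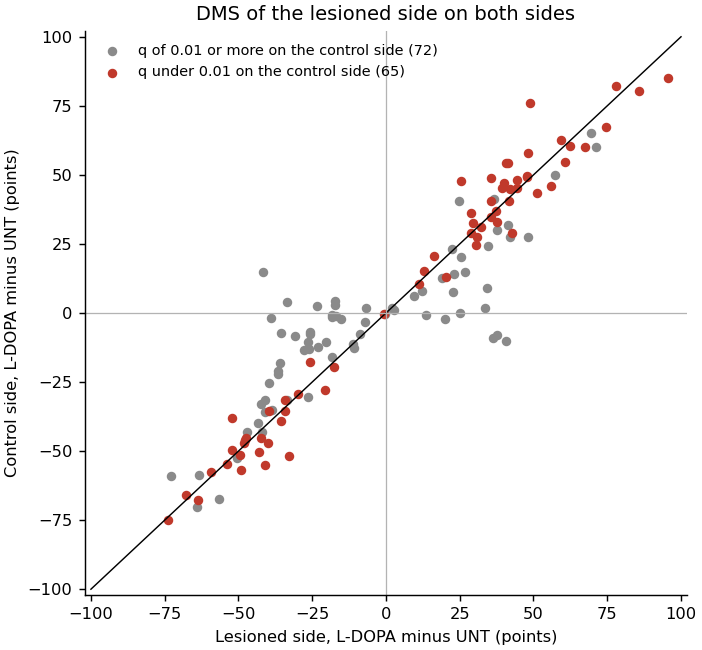
Difference between L-DOPA and UNT in points on the lesioned (horizontal axis) and the control side (vertical axis) for the 137 DMS of the lesioned side that were tested on both. The diagonal marks equal differences; 65 DMS (red) had a q under 0.01 on the control side as well, and 126 lie in the quadrants with the same direction.

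Whether the difference between L-DOPA and UNT depended on the side was tested with an interaction term at 337410 CpGs present in all 12 striata. No CpG had a q under 0.01 in the logistic model with overdispersion correction, 20539 (6.09%) had an unadjusted p under 0.05, and the smallest q was 0.104. With an F test the counts were 0 and 9660. The smallest p among the DMS was at position 20747693 of chromosome 17, with 36.2 points on the lesioned side against -8.95 points on the control side (q = 0.104). Its call on the lesioned side was kept in 2 of the 6 fits without a striatum. Both striata of each rat entered this model as separate samples. Where a group had no methylated read on either side, or methylated reads alone, the logistic model fits without an interaction, whatever the gap between sides. At Azin2, the difference was 42.7 points on the lesioned and 29.0 points on the control side, with an interaction p of 0.993 (chi-square test). The absence of calls therefore says nothing about such CpGs.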

How the data were processed

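RRBS of 18 striata of 9 rats was used, of which the lesioned striata of L-DOPA and UNT rats were compared. Per the labels and the submitters' processing notes, the authors trimmed the reads with Trim Galore 0.4.0 and mapped them to rn6 with Bismark 014.3. The authors deposited, for each striatum and cytosine of a CpG, the coverage as a count of reads without a minimum. The share of reads with a C or T was deposited by the authors as a percent, from which methylated reads were rebuilt and rounded to whole reads.

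Cytosines with at least 10 reads were kept, those 46 to 50 bases past a called cytosine of the same strand (1 read or more in any striatum) were left out, the strands were summed, and CpGs of all 6 striata were tested. A logistic model with overdispersion from Pearson residuals (at least 1) and a chi-square test followed the methylKit procedure of the study, with DMS at a q under 0.01 and no minimum difference. Benjamini-Hochberg adjustment over all tested CpGs was chosen here. Differences are L-DOPA minus UNT from summed reads, and mean ± SD values are over 3 striata. Global means were compared with an exact permutation test. Computations were run in scipy 1.17.1, pandas 2.3.3 and numpy 2.4.6 under Python 3.11.15, and in limma 3.58.1 (pseudocount 0.5) under R 4.3.3. The script was tested on simulated data.

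The 20 named DMS were the 10 with the smallest p in each direction among those whose groups did not overlap, and every run of at least 3 DMS with at most 100 bases between neighbours was named. The members, the exclusion by distance and the gene lists were chosen with earlier results of these data known. Gene names came from the site tables of the study, matched by exact position. Alternatives covered read minimum, distance, strand, test, depth, chromosomes, minimum difference, replicate block and leaving out each striatum. CpG islands, regions of all tested CpGs and sequences around the DMS were not analysed here, since they need rn6. Spike-in rows were used for conversion alone. Replicates are separate rats, and no pair of striata agreed within sampling noise. The median of 18 to 50 reads per CpG and striatum gives levels in steps of several points.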

Additional observations from a re-analysis of the deposited data

How the results depend on the processing

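The 146 DMS (76 lower, 70 higher) became 1035 (810, 225) without exclusion by distance, 383 (198, 185) with 50 bases alone left out and 97 (55, 42) with 40 to 55 bases left out, the cause of which was not tested. They were 79 (49, 30) at 20 reads per cytosine, where 122851 CpGs were tested, 74 (41, 33) with reads thinned to at most 20, 856 (512, 344) without overdispersion correction, and 0 (0, 0) with the F test and with limma, which kept the sign of all 146. Replicate numbers of UNT and L-DOPA stand for different rats, and deviations from the group means correlated by 0.00248, 0.0261 and 0.0132 between equal numbers, so the numbers do not pair the striata. A replicate block gave 363 DMS (212, 151), of which 136 were among the 146. Leaving out 1 striatum gave 109 to 258 DMS, 55 to 131 lower and 54 to 127 higher, with the highest counts without UNT replicate 3. In these fits 53 DMS kept the call each time, and all 146 kept their sign. CpGs whose ratio of reads was outside percentiles 1 to 99, or whose strands differed between striata, were left out after seeing the data, which gave 112 and 118 DMS. The settings not named in this paragraph gave counts within 1.5 times the main one.

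The global difference of -0.516 points over the tested CpGs stayed negative in every setting run on CpGs shared by the striata compared, from -0.00643 points when CpGs were weighted by reads to -0.739 points without L-DOPA replicate 1, and was -0.265 points without L-DOPA replicate 2. On the control side, 177 DMS became 94 at 20 reads, 1250 without exclusion, 445 with 50 bases alone left out, 0 with the F test and 946 without overdispersion correction, and 148 to 326 without 1 striatum, the highest without UNT replicate 3. The 126 DMS with the same direction on both sides became 64 of 72, 908 of 949, 307 of 335, 0 of 0 and 738 of 786 in the same order, and 95 to 222 without 1 striatum. The 0 CpGs with an interaction became 3 without overdispersion correction, and 0 to 1 without 1 striatum, the 1 without L-DOPA control replicate 1. For the 52 DMS that were in a gene, among the 10 first in each direction or in a run of at least 3, no sign changed without 1 striatum, while 69 calls were lost and 243 kept. At 20 reads, 21 of the 52 could be tested and all kept their call. Most of them had the same difference in both settings and fewer CpGs were tested, so the kept calls are no measure of stability. With 3 rats per group and a median of 18 to 27 reads in L-DOPA, differences of a few points were below what these libraries can show at most CpGs.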

Other observations

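Of the 146 DMS, 2 were in the mitochondrial genome, and they had the smallest differences of all. At position 12875, the level was 2.87, 2.82 and 2.76% in L-DOPA and 3.31, 3.41 and 3.49% in UNT, from 24673 to 52778 reads per striatum (-0.568 points, q = 1.19e-09). At position 8883, it was 1.98, 1.95 and 1.84% against 2.24, 2.36 and 2.38% (-0.385 points, q = 1.12e-05). The striata were apart at both CpGs, and the L-DOPA + R striata were lower still, with 2.31 to 2.53% and 1.40 to 1.60%. The unmethylated spike-in, which shows incomplete conversion, was also lower in L-DOPA than in UNT, but in L-DOPA + R it was 0.467 to 0.563%, against 0.476 to 0.562% in UNT. Its part in these differences was not tested.

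Among the chromosomes, chromosome 1 held 25 DMS of 41966 tested CpGs (0.0596%), chromosome 2 held 18 of 25999 (0.0692%), and chromosome 16 held 0 of 12749. Chromosome 14 held 10 DMS of 14290 (0.0700%), of which 8 were lower in L-DOPA, while 13 of 18 on chromosome 2 were higher. These chromosomes were picked after their values were seen, and the direction by chromosome was not tested. Outside chromosome 1 at 11 Mb, no window of 1 Mb held more than 3 DMS.

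The 11 DMS with opposite directions on the control side had differences of 0.654 to 14.7 points there, none with an unadjusted p under 0.05.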
